A study of Mus musculus with 8 samples.

Results

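The 10 genes described here are small nucleolar RNA (snoRNA) host genes, chosen by symbol as Gas5, Snhg1, Snhg3, Snhg5, Snhg6, Snhg8, Snhg11, Snhg12, Snhg14 and Snhg20. All 10 were found among the 55471 gene rows of the count and FPKM tables, and all 10 were among the 16524 genes abundant enough to test. The 8 libraries came from HBG3 mouse embryonic stem cells, a line with a green fluorescent reporter under the Hb9 promoter, that had been turned into spinal motor neurons and grown for 3 days after plating. Every group had the same cells and medium, with no genetic change between groups. Input was RNA before capture. ODD and EVEN were RNA captured with biotinylated antisense DNA oligonucleotides of 20 nt, in 2 probe sets against the long noncoding RNA Lhx1os. LacZ was RNA captured with probes against a bacterial mRNA that mouse cells lack, as negative control. Each group had 2 libraries, 1 from each of 2 independent experiments, and the study read enrichment by setting each pull-down against Input. All libraries rest on 1 stem cell line.

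A snoRNA host gene is transcribed as a long precursor whose introns hold snoRNAs. After splicing, the snoRNA is trimmed out of the intron and joins a small nucleolar ribonucleoprotein, which guides the 2′-O-methylation (box C/D) or pseudouridylation (box H/ACA) of ribosomal and other RNAs. In noncoding hosts the spliced exons are left as a noncoding RNA. For several of these hosts, Gas5 and Snhg1 among them, that RNA is translated briefly and then removed by nonsense-mediated decay. Many hosts start with a C followed by pyrimidines, the 5′ terminal oligopyrimidine start also found on ribosomal protein genes. Snhg11 and Snhg14 are mainly neuronal, and Snhg14 runs from the imprinted Prader-Willi region, with its long clusters of box C/D snoRNAs, into the antisense strand of Ube3a.

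Motor neuron markers were present in all libraries, with Mnx1 at 21.2 to 30.7 FPKM (reads scaled to gene length and library total) and Isl1 at 10.6 to 23.8 FPKM. The cultures also held progenitors, with Sox2 at 69.9 to 149 FPKM, while the pluripotency gene Pou5f1 and the blood gene Hbb-bs had 0 counts. Total counts ranged from 7632775 to 24628435 per library, with Input deepest. Lhx1os had 2.27 and 2.97 CPM (counts scaled to a common library total) in Input, 2.06 and 2.44 with the LacZ probes, 180.1 and 35.7 with the ODD probes and 149.5 and 25.4 with the EVEN probes, in experiments 1 and 2. The target was thus recovered by both Lhx1os probe sets in both experiments, with a larger ratio to Input in the first.

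The starts of the annotated RNAs are shown because they carry the sequence feature for which host genes are known. Each line gives the first 30 bases of 1 isoform in GENCODE release M21, 5′ to 3′, and the capitals mark the run of pyrimidines that opens with a C at the first base. The isoform shown is the one whose start recurs most often among isoforms with a run of at least 5 bases, or else the one with the longest run. The first 3 open with such a run, and the last 3 do not.
Gas5: CTTTCggagctgtgcggcattctgagcagg
Snhg12: CCTTTCTCgcttcatccgcggtccctgtct
Snhg8: CCCTCgcgcgcaggctcttgggagagcgtc
Snhg1: CTCatttttccttgttcggggtaagtactc
Snhg11: Cgcactgcggcactcactcacgcactcagc
Snhg20: atttgcagagctggttccgccggggaggag

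At least 1 isoform opened with a C and a pyrimidine run of 5 or more bases in 7 of the 10 host genes, all but Snhg1, Snhg11 and Snhg20. The run was longest in Snhg12, at 8 bases, and was 7 bases in Snhg6 and Snhg14. The same search, on the transcribed strand only, found such a start in 9.2% of all tested genes, and in 12.3% of the tested genes with 3 to 25 isoforms, the range of the 10 hosts. It found one in 8 of 20 protein-coding snoRNA host genes and in 5 of 13 genes listed as other noncoding hosts. It found one in 1 of 17 snoRNP proteins and in 0 of 10 nonsense-mediated decay factors. An annotated start is not a measured one, and 5 of the 25 Gas5 isoforms had the run.

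The gene models bear on what a count means. On GRCm38, Gas5 occupies the plus strand of chromosome 1 from 161034422 to 161038539 and holds 10 annotated snoRNA genes. Snhg1, on the plus strand of chromosome 19 from 8723475 to 8726443, holds 8. Snhg14, on the minus strand of chromosome 7 from 59307924 to 59975759, spans 667836 bases and holds 208. The merged exons covered the whole span of Snhg1, Snhg8 and Snhg12, and 81.1% to 94.8% of Gas5, Snhg5, Snhg11 and Snhg20. Isoforms annotated with a retained intron were 20 of 25 in Gas5 and 14 of 18 in Snhg1, and 0 in Snhg12 and Snhg20. For those 7 genes a read from an unspliced intron can count toward the host, so the values are those of the gene row and may not be of spliced RNA alone. The share was 53.1% in Snhg6, 17.4% in Snhg3 and 3.91% in Snhg14.

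Some exons are shared with neighbours. Rcc1 on the same strand covers 13.7% of the exon bases of Snhg3, and Gm17300 on the opposite strand covers 71.5%. Mcmdc2 covers 11.1% of Snhg6 and Ube3a 6.91% of Snhg14, both from the opposite strand. The kit was stranded, per the labels, but whether the counting used the strand is not stated, so reads of these partners may not be told apart and the values of Snhg3 are the least certain. The snoRNA rows inside the hosts, which are not part of the 10 rows, were nearly empty: 7 of 10 hosts had 0 counts over all their snoRNA rows, and Snhg14 had at most 10 in a library. Those inside Snhg3, Snora73a and Snora73b, were the exception, with 56 to 431 counts together. All snoRNA genes within Gas5 (10), Snhg1 (8) and Snhg12 (5) overlap merged exons of the host, against 0 of 1 in Snhg6 and 2 of 208 in Snhg14. How a read on both a host exon and a snoRNA gene was counted is not stated. An empty row therefore does not show that the snoRNA was absent.

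In Input, on the per-length FPKM scale, Snhg11 had the highest level, with 11.7 and 45.1 FPKM in experiments 1 and 2 (28.4 ± 23.6, SD, n = 2). Snhg1 had 12.9 and 31.1 FPKM (22.0 ± 12.9), and Gas5 had 10.3 and 24.5 FPKM (17.4 ± 10.1). The remaining 7 lay between 5.01 ± 1.58 for Snhg12 and 9.94 ± 7.19 for Snhg8. No neighbours in this order were separated, because the values of the 2 experiments overlapped for each adjacent pair. The deposited length of Snhg5, 3634 bases, was longer than its merged exons in release M21, 1730 bases, and than its whole span there, 1880 bases. The model counted for Snhg5 was thus not that of M21, and both its count and its length may differ from those of the M21 model. Its FPKM, and the covered share given for it above, should be read with that limit.

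The comparison of the pull-downs with Input asked which RNAs are recovered with the probes. In both experiments, 7 hosts (Gas5, Snhg1, Snhg5, Snhg11, Snhg12, Snhg14 and Snhg20) stood higher in all 6 pull-down libraries than in the Input of the same experiment. The share of all tested genes that did so was not counted. Whether these 7 hosts passed the test depended on whether the experiment was a term of the model. With group as the only term, 0 of the 10 passed an adjusted p of 0.05 for the mean of the 3 pull-downs against Input by edgeR's quasi-likelihood test. In that fit 8.37% of all tested genes were higher and 1.79% lower, and 1 host, Snhg1, had an unadjusted p under 0.05. With the experiment as a block, which the labels justify by giving the replicate as a batch, the 7 rose and none fell, beside 16% of all tested genes that were higher and 13.1% that were lower. The median log2 fold change of the 10 was 0.71 without and 0.70 with the block, against -0.02 and -0.03 over all tested genes. Without Input replicate 1 the median in the fit by group was 0.35, and without Input replicate 2 it was 1.09. With the block and each library's trend on GC removed, 6 hosts were higher and 3 lower, beside 18.6% and 11.9% of all tested genes.

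**Figure D1:**
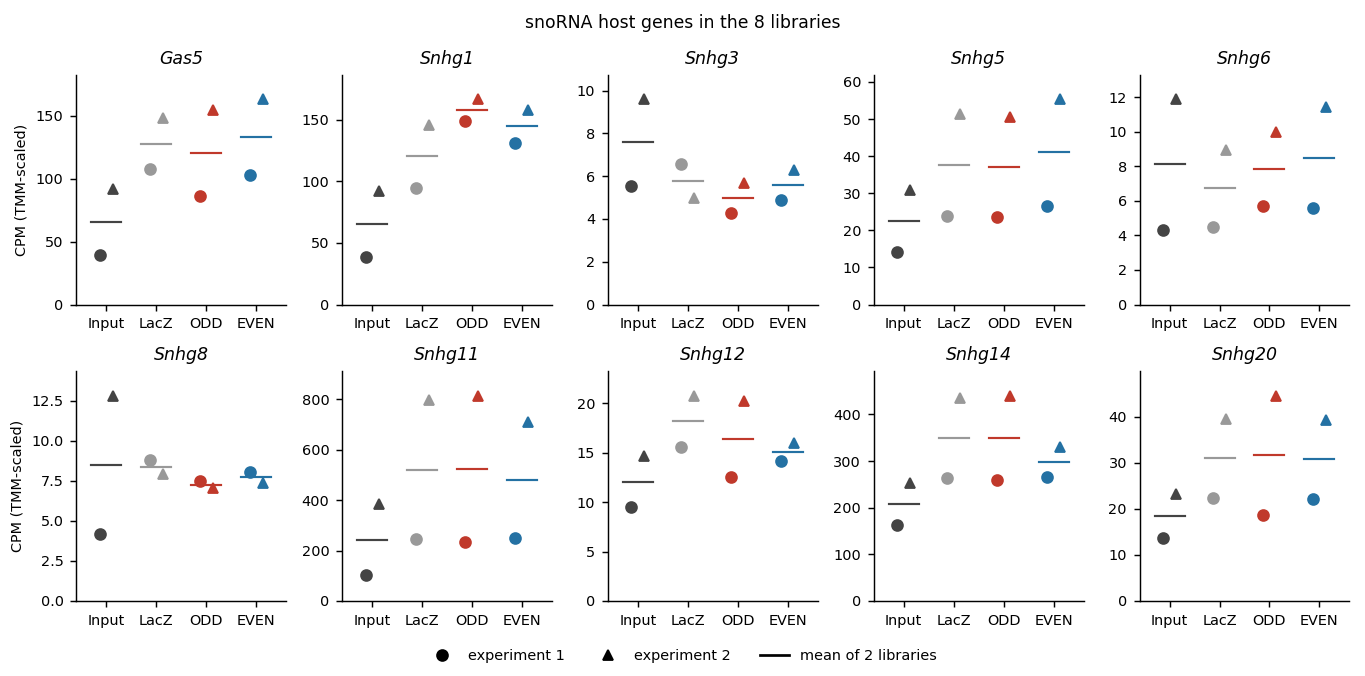
CPM of each host gene in each library on a linear axis from 0, by group, with circles for experiment 1, triangles for experiment 2 and a bar for the mean of the 2 libraries. In the Gas5 panel the 2 Input libraries lie at 39.3 and 92.2 CPM and the second experiment is the higher in every group.

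Gas5, which was named for its rise in growth-arrested cells, had 39.3 and 92.2 CPM in Input in experiments 1 and 2. It had 108 and 148 CPM with LacZ, 86.6 and 154 with the ODD probes and 103 and 163 with the EVEN probes. The groups overlap when the experiments are pooled, since ODD of the first experiment lies under Input of the second, but not within an experiment. The log2 fold change of the pull-downs over Input was 0.95 (SE 0.40, adjusted p = 0.205) without the block and 1.02 (SE 0.16, adjusted p = 0.00299) with it.

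Snhg1, host of several box C/D snoRNAs, had 38.7 and 92.4 CPM in Input and 94.6 and 146 CPM in LacZ. It had 149 and 167 CPM in ODD, and 131 and 158 in EVEN. All 6 pull-down libraries were above both Input libraries, the lowest of them by a narrow margin. Its log2 fold change was 1.09 (SE 0.35, adjusted p = 0.106) without the block and 1.18 (SE 0.21, adjusted p = 0.00617) with it.

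Snhg11, expressed mainly in neurons and listed as protein coding in release M21, had the highest CPM of the 10 in all 4 libraries of the second experiment, and in the first experiment Snhg14 was above it in all 4. It had 101 and 384 CPM in Input, 245 and 797 with the LacZ probes, 232 and 814 with the ODD probes and 249.6 and 708 with the EVEN probes. The distance between experiments was larger than that between pull-down and Input. Its log2 fold change was 1.06 (SE 0.80, adjusted p = 0.488) without the block and 1.13 (SE 0.12, adjusted p = 0.000789) with it.

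Snhg5, a host of box C/D snoRNAs, had 14.2 and 30.8 CPM in Input, 24.0 and 51.4 with the LacZ probes, 23.7 and 50.5 with the ODD probes and 26.7 and 55.4 with the EVEN probes. The 6 ratios to the Input of the same experiment were close to each other, from 1.64 to 1.88. With the block its log2 fold change was 0.78 (SE 0.10, adjusted p = 0.00130), against an adjusted p of 0.416 without.

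Snhg14, the imprinted antisense partner of Ube3a, had 163 and 254 CPM in Input, 263 and 435 with the LacZ probes, 260.5 and 441 with the ODD probes and 265 and 329.8 with the EVEN probes. All 6 pull-down values were above both Input values. With the block its log2 fold change was 0.67 (SE 0.12, adjusted p = 0.00592), against an adjusted p of 0.250 without. This direction depended on the treatment of base composition. Snhg14 had 38.1% GC, lower than all but 3.59% of tested genes, and with each library's trend on GC removed in the blocked fit its value was -0.43 (adjusted p = 0.0115).

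Snhg20 had 13.7 and 23.3 CPM in Input, 22.4 and 39.6 with the LacZ probes, 18.6 and 44.6 with the ODD probes and 22.1 and 39.4 with the EVEN probes. Snhg12 had 9.48 and 14.7 CPM in Input, 15.6 and 20.8 with the LacZ probes, 12.6 and 20.3 with the ODD probes and 14.1 and 16 with the EVEN probes. Both were higher than Input within each experiment. With the block, Snhg20 rose by 0.72 on the log2 scale (SE 0.13, adjusted p = 0.00639) and Snhg12 by 0.46 (SE 0.14, adjusted p = 0.0432). Without it the adjusted p was 0.365 for Snhg20 and 0.379 for Snhg12. Snhg12 was the least secure call, since it was lost when any 1 of 6 libraries was left out of the blocked fit (all but Input replicate 2 and EVEN replicate 2).

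The other 3 hosts had the lowest mean CPM in Input, and none passed in either fit. Snhg3 had 5.56 and 9.60 CPM in Input, 6.57 and 4.96 with the LacZ probes, 4.26 and 5.67 with the ODD probes and 4.91 and 6.29 with the EVEN probes. It was under the Input of the same experiment in 5 of 6 libraries, and the blocked fit gave -0.46 on the log2 scale (SE 0.22, adjusted p = 0.156). Snhg6 had 4.33 and 11.9 CPM in Input, 4.51 and 8.96 with the LacZ probes, 5.71 and 10.0 with the ODD probes and 5.58 and 11.4 with the EVEN probes. Its log2 fold change with the block was -0.01 (SE 0.17, adjusted p = 0.970). With the GC trend removed, Snhg3 at -0.75 (adjusted p = 0.0343) and Snhg6 at -0.52 (adjusted p = 0.0440) both passed as lower, as did Snhg14, and the other 6 of the 7 that rose were still called higher.

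Snhg8 went opposite ways in the 2 experiments. It had 4.20 and 12.8 CPM in Input, against 8.77 and 7.92 with the LacZ probes, 7.48 and 7.02 with the ODD probes and 8.04 and 7.37 with the EVEN probes. The pull-downs thus held 7.02 to 8.77 CPM in both experiments, while the 2 Input libraries differed 3.05-fold. The ratio to the same experiment's Input was 1.78 to 2.09 in the first and 0.548 to 0.618 in the second, and the mean log2 fold change with the block was -0.05 (SE 0.34, adjusted p = 0.930).

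**Figure D2:**
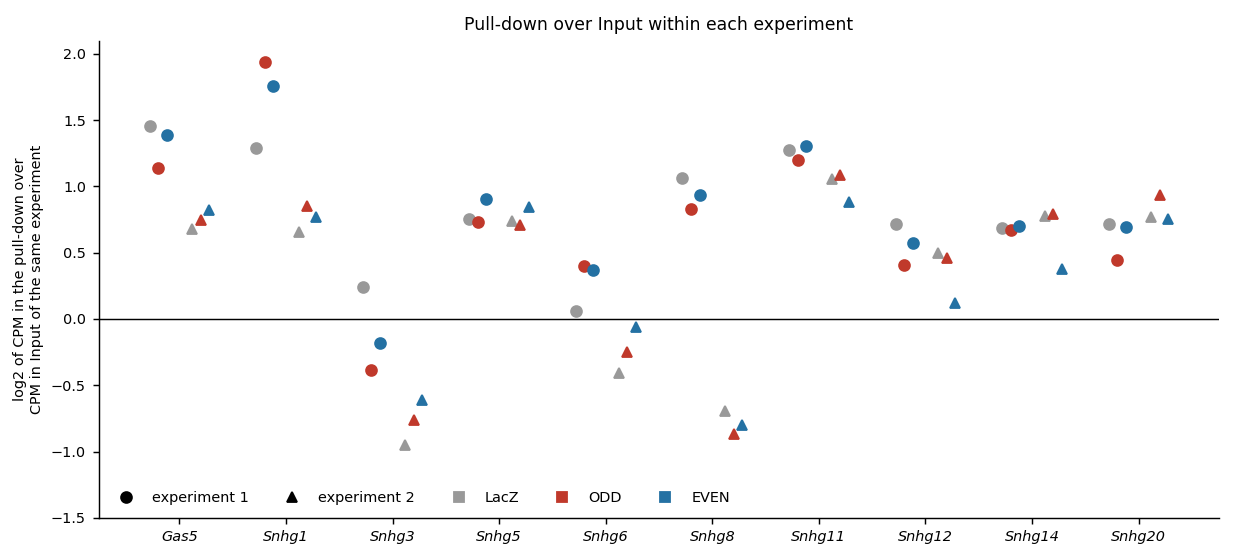
The log2 ratio of CPM in each pull-down library to CPM in the Input library of the same experiment, for each host gene, with circles for experiment 1 and triangles for experiment 2 and colours for the probe set. Of the 10 genes, 7 have all 6 points above 0, and the points of Snhg8 lie above 0 in experiment 1 and under 0 in experiment 2.

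A term for a pull-down effect that differs between experiments, added after these values had been seen, was negative for Snhg8 at -1.73 (SE 0.24, adjusted p = 0.0147) and for Snhg1 at -0.91 (SE 0.20, adjusted p = 0.0496). These were the 2 hosts that passed, beside 3.71% of all tested genes that were lower and 1.28% that were higher by this term. For Snhg1 the ratio to Input was 2.44 to 3.84 in the first experiment and 1.58 to 1.80 in the second. Gas5 had ratios of 2.20 to 2.75 and 1.60 to 1.77, with a term of -0.58 (SE 0.17, adjusted p = 0.110). For Snhg5, Snhg14 and Snhg20 the term lay between -0.04 and 0.21. Each experiment had 1 Input library, so the 3 ratios of an experiment share it, and the spread of Input within an experiment is unknown.

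The 3 probe sets each gave similar values against Input. They share the Input libraries, so their counts are set side by side and are not independent. With the block, 6 hosts were higher with ODD, 6 with EVEN and 7 with LacZ, beside 12.6%, 12.8% and 12.7% of all tested genes; none was lower, beside 6.55%, 6.41% and 7.0%. Without it 0 passed in each, beside 6.46%, 5.37% and 6.98% of all tested genes, and the hosts with an unadjusted p under 0.05 numbered 1, 1 and 0. In the blocked fit the log2 change of Gas5 was 0.92 with ODD, 1.09 with EVEN and 1.06 with LacZ, and Snhg11 had 1.14, 1.09 and 1.16. Snhg1 had 1.37 with ODD, 1.23 with EVEN and 0.93 with LacZ. With GC trends removed these were 0.88 (adjusted p = 0.0406), 0.76 (adjusted p = 0.0642) and 0.42 (adjusted p = 0.265). Snhg12 passed with LacZ alone, at 0.60 (adjusted p = 0.0456), with 0.44 (0.118) for ODD and 0.35 (0.192) for EVEN. These counts rested on single libraries: without replicate 1 or 2 of ODD the ODD count was 2, without replicate 1 of EVEN the EVEN count was 2, and without replicate 1 or 2 of LacZ the LacZ count was 2. With GC trends removed, 5 hosts were higher with ODD, 4 with EVEN and 5 with LacZ, beside 13.5%, 13.8% and 13.3% of all tested genes. Those called lower then numbered 0, 1 and 2, beside 7.73%, 7.05% and 7.91%.

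The direct comparison of the Lhx1os probes with the LacZ probes called no host gene, and it did not call the target either. With ODD and EVEN averaged and set against LacZ, 0 of 10 hosts and 0.0% of all tested genes passed by edgeR's quasi-likelihood test, with or without the block, and 0 hosts had an unadjusted p under 0.05. The log2 fold changes without the block lay between -0.21 for Snhg12 (SE 0.28) and 0.33 for Snhg1 (SE 0.35), with a median of -0.04 against 0.01 over all tested genes. With the block they lay between -0.21 and 0.37 (SE 0.21 for Snhg1, unadjusted p = 0.128). The same count of 0, with 0.0% of all genes in either direction, held for ODD against LacZ, EVEN against LacZ and ODD against EVEN. DESeq2 also called 0 hosts in each of these 4 comparisons. Lhx1os itself did not pass here by edgeR, at 5.42 on the log2 scale without the block (SE 1.10, unadjusted p = 0.00172, adjusted p = 1.00), while DESeq2 gave an adjusted p of 1.28e-09. A count of 0 in these comparisons therefore says nothing about smaller differences. With the block, the standard error for the hosts ranged from 0.10 for Snhg5 to 0.39 for Snhg8.

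**Figure D3:**
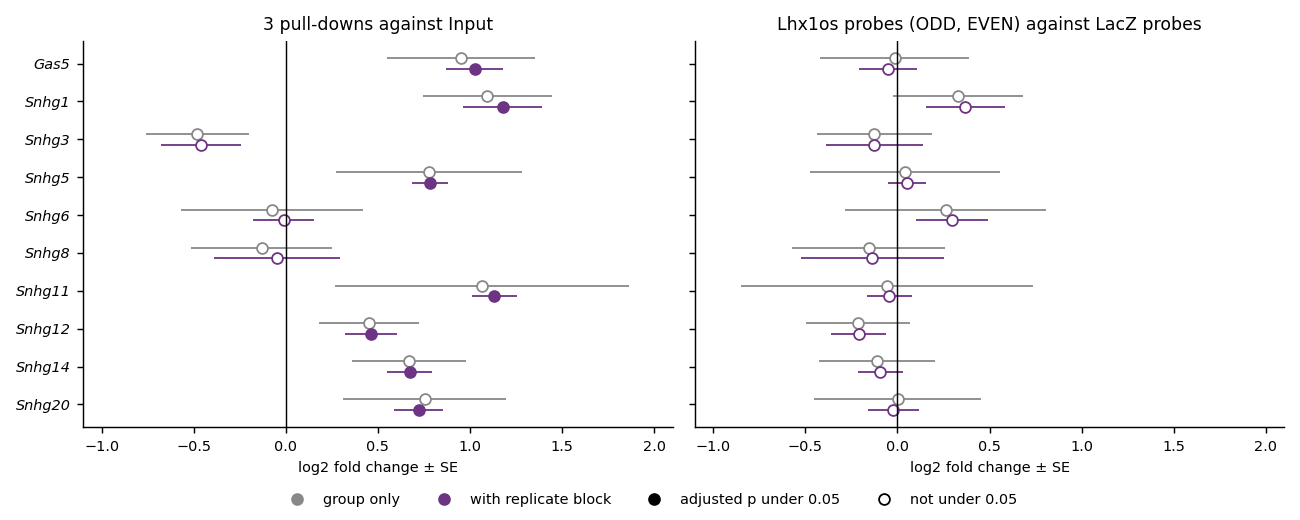
Log2 fold change and its SE for each host gene, for the 3 pull-downs against Input (left) and for ODD and EVEN against LacZ (right), without the replicate block in grey and with it in purple; filled points have an adjusted p under 0.05. On the left 7 purple points are filled and no grey one is, and on the right none is filled.

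Sequence shared with the target is of interest because an antisense probe could also pair with it. The longest run of bases that a host RNA shares with Lhx1os in the same orientation was 17 bases, in Snhg11, and runs of that length or longer occurred in 6.28% of tested genes. The Snhg11 run was ctgtcctggaactcact. The other 9 hosts shared 8 to 13 bases, with a median over tested genes of 11 bases, and Gas5 shared gtgaagaagggga. No host RNA shared 20 bases, the length of a probe. The probe sequences themselves were not used here.

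The hosts also differed between the experiments. In the second experiment against the first, with group as the other term, 8 of 10 hosts rose and none fell, beside 15.0% of all tested genes that were higher and 12.4% that were lower. The median was 0.70 on the log2 scale, against 0.01 over all tested genes. Snhg11 rose most, by 1.74 (SE 0.10, adjusted p = 7.89e-05), and was 2.84 to 3.80 times higher in the second experiment in each of the 4 groups. Snhg5 rose by 1.09 (SE 0.08, adjusted p = 0.000204) and Snhg6 by 1.09 (SE 0.15, adjusted p = 0.00237). Snhg20 rose by 0.92 (adjusted p = 0.00145), Gas5 by 0.79 (adjusted p = 0.00445) and Snhg14 by 0.61 (adjusted p = 0.00496). All 6 were higher in 4 of 4 groups.

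Snhg1 at 0.57 (adjusted p = 0.0464) and Snhg12 at 0.48 (adjusted p = 0.0243) also passed but were the closest to the threshold. Snhg12 was not called without either LacZ library or either ODD library, and Snhg1 not without either LacZ library or either EVEN library. Snhg1 was also not called with a low-count filter of 50, with GC trends removed, or by limma on log2 FPKM. Snhg3, at 0.33 (adjusted p = 0.260), and Snhg8, at 0.36 (adjusted p = 0.421), did not pass. Only Snhg11 passed a test for an absolute log2 change above 1.

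Summed levels of cell type markers also differed between the experiments. The summed level of the 7 motor neuron markers was 60.1 to 67.2 FPKM in the first experiment and 99.7 to 111 FPKM in the second. That of the 4 progenitor markers was 324 to 429 FPKM in the first and 219 to 278 in the second. The oligodendrocyte marker Mbp had 29.99 to 41.9 FPKM in the first and 4.57 to 6.64 FPKM in the second, while the astrocyte markers Gfap and Aqp4 were near 0 in all libraries. The part of these shifts in the host gene values was not tested. In bulk libraries, fewer cells of a type and less RNA per cell cannot be told apart. The fibroblast markers summed to 9.08 to 17.1 FPKM in Input and 7.32 to 10.1 FPKM in the pull-downs.

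Of 15 genes listed as other noncoding snoRNA hosts, 13 were matched and 12 tested. In the second experiment 7 of the 12 were higher and 0 lower, beside 15.0% and 12.4% of all tested genes, with a median log2 change of 0.42. Snhg18 at -0.17 and Snhg10 at -0.03 lay under 0 and did not pass. The largest changes were in Mirg (1.21, adjusted p = 0.0126), Rian (1.01, adjusted p = 0.000986), Dancr (0.80, adjusted p = 0.00771) and Meg3 (0.76, adjusted p = 0.0180). Meg3, Rian and Mirg are neighbours in 1 imprinted region, so they are not separate cases. Of these, Rian carries the box C/D snoRNA cluster and Mirg microRNAs. Meg3 and Mirg are counted in this list all the same, so its counts and medians are not of snoRNA hosts alone. In the pull-downs against Input with the block, 5 of the 12 were higher and 2 lower, beside 16% and 13.1% of all tested genes, with a median of 0.34; without it 0 passed. Mirg at 1.86 (adjusted p = 0.00494), Meg3 at 1.19 (adjusted p = 0.00600) and Rian at 0.61 (adjusted p = 0.0129) were among the higher. Snhg18 at -0.92 (adjusted p = 0.0433) and 2410006H16Rik at -0.84 (adjusted p = 0.0382) were the lower ones.

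The protein-coding snoRNA hosts, mostly ribosomal protein and translation factor genes, were counted in the same way. In the pull-downs against Input with the block, 1 of 20 was higher and 1 lower, beside 16% and 13.1% of all tested genes, with a median of 0.07. Without the block 1 was higher and 0 lower, beside 8.37% and 1.79% of all tested genes. The lower one with the block was Rps12, at -0.73 (SE 0.23, adjusted p = 0.0477). Eef2 (-0.01, adjusted p = 0.958) and Tpt1 (-0.03, adjusted p = 0.923), which are among the most abundant of these hosts, did not pass. Between the experiments 1 was higher, Tnpo2 at 0.43 (adjusted p = 0.0201), and 1 lower, nucleolin (Ncl) at -0.69 (adjusted p = 0.0294), with a median of -0.20. Over all tested genes 15.0% were higher and 12.4% lower.

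Among the proteins that bind or assemble snoRNAs, 17 of 18 listed were matched and tested. In the pull-downs with the block 0 were higher and 2 lower, beside 16% and 13.1% of all tested genes. The lower ones were the box H/ACA protein Nop10 at -1.20 (adjusted p = 0.0302) and the box C/D protein Snu13 at -0.63 (adjusted p = 0.0213), with a median of -0.08; 0 passed without the block. Nop56, a box C/D core protein whose gene is itself a snoRNA host and stands in both lists, was at 1.53 (SE 0.51, adjusted p = 0.0593). With single probe sets and the block, 2 were higher and 0 lower with ODD, beside 12.6% and 6.55% of all tested genes. The counts were 0 and 0 with EVEN, beside 12.8% and 6.41%, and 0 and 1 with LacZ, beside 12.7% and 7.0%. The 2 with ODD were Nop56, at 2.47 (adjusted p = 0.0295), and the box C/D assembly factor Znhit6, at 1.90 (adjusted p = 0.0248). Znhit6 was named after its value had been seen. With the block, Znhit6 was at 1.46 for EVEN (adjusted p = 0.0565) and 0.13 for LacZ (adjusted p = 0.878). In experiments 1 and 2 Znhit6 had 98.4 and 27.9 CPM with the ODD probes and 47.04 and 39.5 with the EVEN probes. With the LacZ probes it had 16.8 and 17.1 CPM. For EVEN and LacZ Nop56 was at 1.51 (adjusted p = 0.109) and 0.61 (adjusted p = 0.497). It had 80.0 and 109 CPM in Input, 109 and 177 with the LacZ probes, 881 and 210.2 with the ODD probes and 264 and 276 with the EVEN probes, and ODD of the first experiment stood far above the other libraries. Between the experiments 0 of the 17 were higher and 2 lower, beside 15.0% and 12.4% of all tested genes. The lower ones were Naf1 at -0.50 (adjusted p = 0.00760) and Ruvbl2 at -0.30 (adjusted p = 0.0345). Of 10 nonsense-mediated decay factors, 2 were higher and 0 lower in the pull-downs with the block, beside 16% and 13.1% of all tested genes. These were Upf3b at 0.75 (adjusted p = 0.00831) and Upf2 at 0.69 (adjusted p = 0.0119). Upf3b was also called without it. Between experiments 1 was higher and 0 lower, beside 15.0% and 12.4% of all tested genes. The higher one was Smg9 at 0.35 (adjusted p = 0.0367). The decay helicase Upf1 did not pass, at -0.24 (adjusted p = 0.226) in the pull-downs and 0.24 (adjusted p = 0.180) between experiments.

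**Figure D4:**
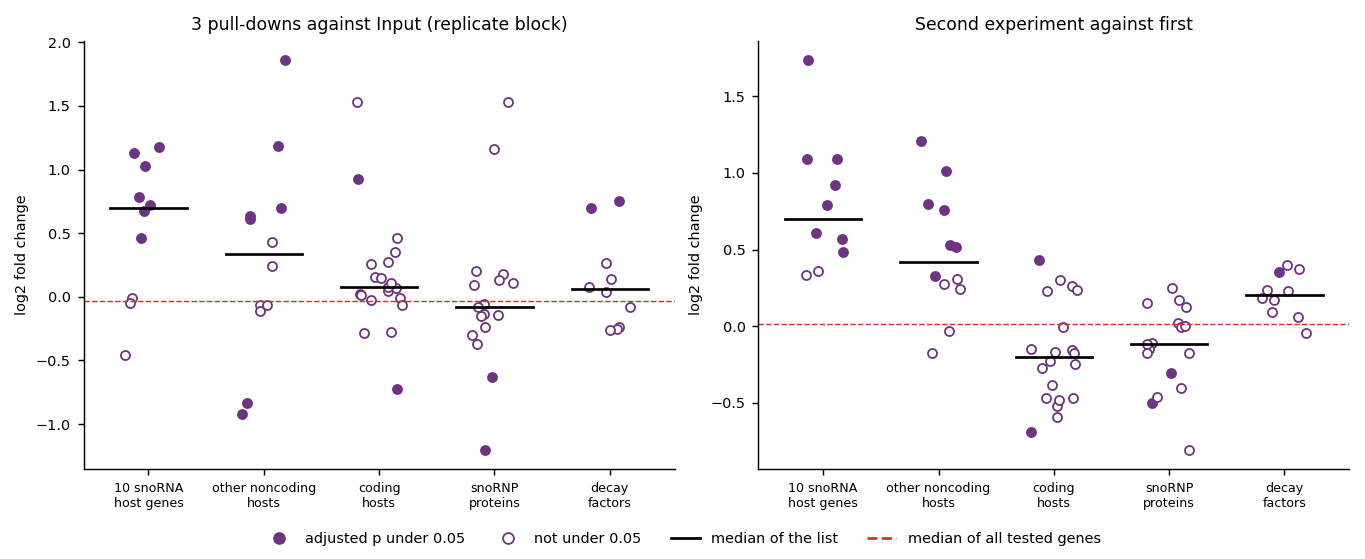
Log2 fold change of each tested gene of 5 lists for the 3 pull-downs against Input with the replicate block (left) and for the second experiment against the first (right), with filled points for an adjusted p under 0.05, black bars for list medians and a dashed line for the median of all tested genes. The 10 host genes have medians of 0.70 on both sides, and the protein-coding hosts lie near or under the dashed line.

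The pull-down values of all tested spliced genes were also grouped by how far the exons cover a gene. In bins of the covered share from 0% to 10% up to 75% to 100%, the median log2 fold change with the block was between -0.06 and -0.09. The upper quartile was 0.25 in the 75% to 100% bin and 0.15 to 0.18 in the others. Among the 10 hosts, 6 of the 7 covered by 81.1% or more rose, and Snhg8 with 100% did not. Of the 3 covered by 53.1% or less, 1 rose, Snhg14, which was called lower with GC trends removed. Among the other noncoding hosts named above, Mirg (37.0% covered), Meg3 (58.9%) and Rian (31.6%) rose with the block. Dancr (100%) and Snhg10 (31.8%) did not pass, and Snhg18 (36.3%) and 2410006H16Rik (23.9%) were lower. The share of all genes called higher in each bin was not counted, and the part of the covered share in the host values was not tested. The 3 hosts without a pyrimidine start were all among the 7 that rose over Input, as were Gas5, Snhg5, Snhg12 and Snhg14, which have one. Snhg3, Snhg6 and Snhg8 have such a start and did not rise. A link between the start and the pull-down values was not tested.

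The genes whose pattern over the 8 libraries was most like the hosts' mean pattern (standardised log2 CPM) were Mpp3 (Pearson r = 0.990), Rgs11 (r = 0.989) and the noncoding RNA Gm26876 (r = 0.987). These are descriptions over 8 libraries that share experiments, and 314 tested genes had an r above 0.9. Among the hosts, which are part of that mean, r was 0.974 for Snhg11 and 0.957 for Snhg5 and lowest for Snhg8, at 0.602, and Snhg3, at 0.241. Snhg3 and Snhg8 thus did not follow the pattern of the other 8.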

How the data were processed

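The data were RNA-seq libraries of total RNA, made with a stranded kit after removal of ribosomal RNA, per the labels' protocols. Whole-number counts for each Ensembl gene, FPKM values and gene lengths were deposited by the authors. The deposited FPKM values equal the count divided by gene length and by the total of the count column (largest relative difference 6.66e-14). The submitters' processing notes name cutadapt 3.2, Bowtie2 2.4.2, Picard and HTSeq 0.13.5 and the build GRCm38; no source used here gives their roles, the annotation or the strand setting. Gene models and sequences are from GENCODE release M21 on GRCm38, in which 54655 of 55144 matched identifiers (99.1%) had the deposited length.

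Counts were tested with edgeR 4.0.16 (quasi-likelihood, two-sided, TMM, default low-count filter by group) on all 8 libraries with group as the only term, leaving 16524 genes; p-values were adjusted by Benjamini-Hochberg over all of them, with a threshold of 0.05. The standard error is the log2 fold change divided by the square root of F. The script was tested on simulated counts. The experiments were compared with group and replicate as terms. CPM are the deposited counts over TMM-scaled totals (factors 0.965 to 1.03). The labels give the replicate as a batch, so numbers pair libraries; deviations from group means correlated with r of 0.506 to 0.708 over the 6 pairs of groups, and the replicate block is given beside results. Replicates differed beyond counting noise (chi-square per degree of freedom 22.7 to 44.4). Counts are reads without molecular identifiers, and 2 libraries per group limit the precision.

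Alternatives tried were a block on the replicate, the block with GC trends removed (natural spline, 5 degrees of freedom), DESeq2 1.42.0, size factors by RLE or by library total, a low-count filter of 50 in 2 libraries or of 1 count in all, a fit restricted to the compared groups, limma 3.58.1 on log2(FPKM + 1) or log2(FPKM + 0.1), a test against an absolute log2 change of 1, and omission of each library in turn. The term for a pull-down effect differing between experiments, recentring after GC removal, and leaving out libraries in the blocked fit were added after seeing the data. All 10 hosts are named; from each other list, up to 4 genes that pass with the largest changes and the 3 with the highest mean FPKM could be named. The hosts and lists were chosen with earlier results of these data known. Snhg4, Snhg7 and Nhp2l1 were not matched, Snhg16 was matched by the synonym 1810032O08Rik, and Snhg9 was too low to test. The values of 2 genes of the lists are not reported here.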

Additional observations from a re-analysis of the deposited data

Results flagged for a closer look

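The ratio of pull-down to Input differed between the experiments by a test of that difference for 2 hosts, Snhg8 and Snhg1. Snhg6 moved in opposite directions in the 2 experiments and did not pass it. Snhg8 had an interaction of -1.73 on the log2 scale (adjusted p = 0.0147, edgeR's quasi-likelihood test over all genes), with 3 of 3 pull-downs above Input in the first experiment and 0 of 3 in the second. Snhg1 had an interaction of -0.91 (adjusted p = 0.0496), with all 6 pull-downs above Input and larger ratios in the first experiment. Snhg6 stood above Input in all 3 pull-downs of the first experiment, with a lowest ratio of 1.04, and under it in all 3 of the second, with a highest ratio of 0.960. The test of that difference did not pass for Snhg6 (adjusted p = 0.287). Each of these values rests on 1 Input library per experiment.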

How the results depend on the processing

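The count of called hosts in pull-downs against Input depended on the model. For the mean of the 3 pull-downs (0 in the fit by group), it was 1 with DESeq2, 4 with no filter beyond 1 count, 7 with the replicate block, and 9 (6 higher, 3 lower) with the block and GC trends removed, with or without recentring. For ODD (0) it was 1 with DESeq2, 3 without the filter, 6 with the block, 5 with GC trends removed and 7 when recentred. For EVEN (0) it was 2 without the filter, 6 with the block and 5 with GC trends removed, recentred or not. For LacZ (0) it was 3 without the filter, 7 with the block and 7 with GC trends removed, recentred or not. Shares of all tested genes for the fit by group, the block and GC removal are given above. When recentred, 2485 of 16524 tested genes were higher and 2746 lower for the mean. For ODD, EVEN and LacZ when recentred, 1890, 1842 and 1897 were higher and 1805, 1733 and 1786 lower. Counts over all genes are not given here for DESeq2, without the filter or with 1 library left out. Snhg14 alone changed to a called value of the opposite sign: with GC trends removed it was -0.43 for the mean of the pull-downs, -0.47 for EVEN and -0.43 for LacZ, and when recentred -0.53, -0.58 and -0.52, and -0.47 for ODD; the cause was not tested.

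Leaving out 1 library gave 0 to 1 calls for the mean of the pull-downs and for ODD, and 0 to 0 for EVEN, LacZ and the 4 comparisons among pull-downs. In the blocked fit it gave 6 to 8 for the mean, 2 to 7 for ODD, 2 to 7 for EVEN and 2 to 8 for LacZ. Without an Input library Snhg8 passed, higher with Input replicate 1 alone and lower with Input replicate 2 alone. For the second experiment against the first (8) the count was 6 to 8, and 1 for a minimum log2 change of 1. The interaction (2) gave 1 with RLE size factors, 1 with the 50-count filter, 0 with a minimum change of 1, and 1 to 2 without 1 library. The block changed no call among the pull-downs. Of 1830 values of single hosts under alternatives, 1707 kept direction or stayed uncalled, 89 passed only under the alternative, 73 of them with the block, and 27 no longer passed. Snhg3, Snhg6 and Snhg8 had at most 263 counts in a library.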
